A study of Mus musculus with 6 samples.

Results

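The 9 genes described here encode transcription factors that give the dorsal telencephalon its identity and divide the cortical sheet into areas: Pax6, Emx1, Emx2, Lhx2, Nr2f1, Nr2f2, Sp8, Dmrta2 and Dmrt3. They were picked by gene symbol for these known roles, at a time when earlier results of these data were known. Of the 9, 9 were found among the 17348 genes of the deposited table. The RNA came from E13.5 mouse cortex, with 3 libraries of genotype WT and 3 of genotype cKO. In the cKO, floxed Ybx1 is removed by Nestin-Cre, which drives recombination in neural progenitors and their descendants, whereas blood, vessels, meninges and skin largely keep the gene. The controls are labelled WT, while the study defines its control littermates as Ybx1 fl/fl without Cre, so they may carry the floxed alleles too. The study's methods describe the expression profiles as coming from separate replicate experiments. Neither they nor the labels say whether each library was a separate embryo or a pool, so p-values treat the library as the unit. Ybx1 encodes an RNA-binding protein that recognises 5-methylcytosine in messenger RNA.

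The cortical primordium is patterned before it makes most of its neurons. Fgf ligands from the rostral pole and Wnt and Bmp ligands from the cortical hem, at the caudomedial edge, set up graded expression of transcription factors in the ventricular zone. Pax6 is high rostrolaterally and Emx2 is high caudomedially, and loss of either shifts the boundaries of areas. Sp8 is induced by Fgf8 near the rostral pole, whereas Nr2f1 (COUP-TFI) is high caudolaterally and limits the extent of frontal areas. Lhx2 is the selector gene that keeps the neuroepithelium cortical and prevents it from becoming hem. Dmrta2 (also called Dmrt5) and Dmrt3 are caudomedial factors next to the hem, and Emx1 marks almost the whole dorsal pallium. Nr2f2 (COUP-TFII) is found in caudal and ventral progenitors, in interneurons of the caudal ganglionic eminence and also in mesenchyme and venous endothelium.

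The genes lie on 7 chromosomes in build GRCm38 (gene bounds from GENCODE M21). Lhx2 (Entrez 16870) is at chr2:38339281-38369733 on the plus strand, and Pax6 (18508) is further along at chr2:105668900-105697364, also on the plus strand. Dmrta2 (242620) is at chr4:109978053-109983687, Emx1 (13796) at chr6:85187438-85204462 and Sp8 (320145) at chr12:118846329-118852576, all on the plus strand. Nr2f2 (11819) at chr7:70351944-70366735 and Nr2f1 (13865) at chr13:78188973-78199757 lie on the minus strand. Chromosome 19 carries Dmrt3 (240590) at 25610301 to 25623921 and Emx2 (13797) at 59458372 to 59465357, both on the plus strand. All 9 are protein coding. In 5 of them, Pax6, Emx2, Lhx2, Nr2f1 and Nr2f2, a non-coding gene on the opposite strand overlaps the gene body, over 264 bases for Emx2 with Emx2os and 1431 bases for Pax6 with Pax6os1. Use of strand in counting is not given in the sources used here, and the overlapping genes have no row in the table, so reads from the 2 strands of those stretches cannot be told apart.

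Libraries held between 15907486 and 16282921 estimated counts. Ybx1 itself was at 528 to 1220 CPM (counts scaled by TMM-normalised library size) in WT and 83.1 to 147 in cKO, or -3.00 ± 0.33 (standard error) as a log2 fold change, and edgeR's quasi-likelihood test gave it adjusted p = 0.128. WT replicate 2, at 528 CPM, is the library nearest to cKO, and without it the adjusted p-value of Ybx1 by the same edgeR test was 0.0206. The call varied with the setting: adjusted p was 5.46e-10 in DESeq2, and 0.0206 to 0.953 in edgeR with 1 library left out, the highest without cKO replicate 2. Markers of cortical progenitors and neurons (12 genes, Tbr1, Neurod6 and Emx1 among them) each had at least 10 counts in every library, and their sum was 4384 to 5296 CPM in WT and 4260 to 5363 in cKO, with CPM here taken over the library total. One library, cKO replicate 3, stood apart, with 2153 and 823 counts of the basal keratins Krt5 and Krt14 against 0 or 1 in each other library. It also had 2129 counts of the collagen gene Col1a1 against 22 to 96 and 2384 of Col1a2 against 13 to 58. Where leaving out WT replicate 2 or cKO replicate 3 turned a direction or a call below, both values are given in many cases but not in all. In bulk tissue, fewer cells of a type and less RNA per cell cannot be told apart.

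Levels of the 9 transcripts were compared first, in TPM, which is scaled for transcript length. Lhx2 was highest, at 686 ± 83.7 TPM in WT and 629 ± 46.6 in cKO (SD, n = 3 each). Sp8 was lowest, at 9.80 ± 1.43 TPM in WT and 11.8 ± 2.38 in cKO, and over all 6 libraries the mean level of Lhx2 was 60.9 times that of Sp8. Between them, the order of mean TPM over the 6 libraries was Nr2f1 (339), Emx1 (211), Pax6 (113), Emx2 (75.6), Dmrta2 (71.5), Dmrt3 (29.1) and Nr2f2 (26.7). The selector Lhx2 lay at percentile 99.0 of all genes in the table by mean TPM, Nr2f1 at 97.6, Pax6 at 90.8 and Sp8 at 46.3.

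This order was set by mean TPM in these same 6 libraries, so tests of neighbours are not independent of it. Where the ranges of a pair are separate, the p-value must take its smallest value. Most steps went the same way in every library. In 6 of the 8 neighbouring pairs the higher gene was above the lower in 6 of 6 libraries and the ranges did not overlap (exact two-sided sign-flip permutation test, p = 0.0312 and adjusted p = 0.0417 for each, the first being the smallest value 6 libraries can give). The smallest of these steps was from Pax6 to Emx2, 1.496-fold. The 2 exceptions were Emx2 over Dmrta2, higher in 4 of 6 libraries by 1.06-fold on average (exact permutation test, adjusted p = 0.179), and Dmrt3 over Nr2f2, higher in 4 of 6 libraries by 1.10-fold (exact permutation test, adjusted p = 0.312). For these pairs the difference in TPM level was within the spread of the libraries.

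**Figure D1:**
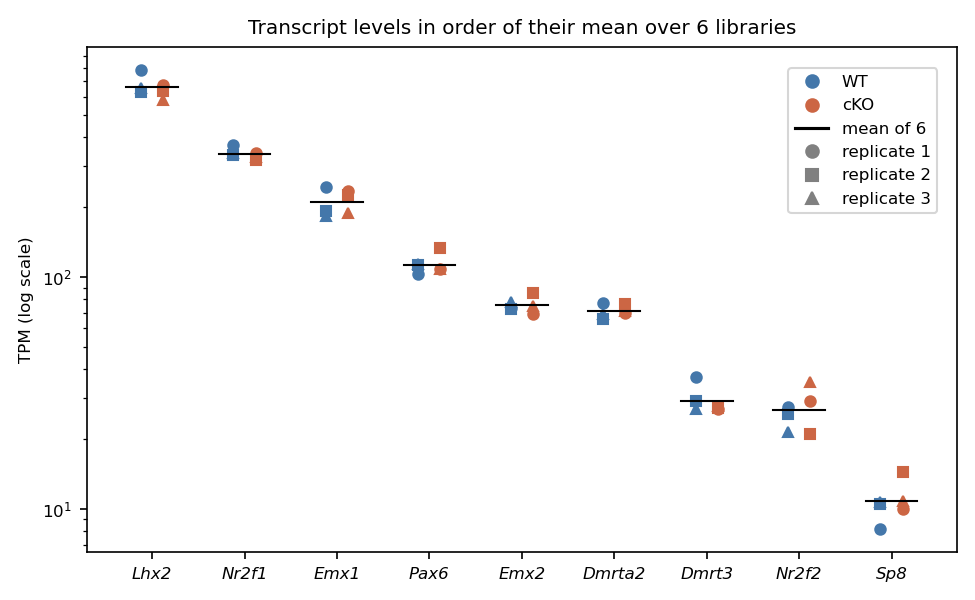
TPM (log scale) of each factor in the 6 libraries, WT in blue and cKO in orange, with symbol shape giving the replicate number and a line at the mean of 6. Ranges of neighbours are separate except for Emx2 with Dmrta2 and Dmrt3 with Nr2f2.

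Next, the comparison of genotypes asked whether deletion of Ybx1 altered the transcripts of these patterning factors. It was made on TMM-normalised counts with edgeR's quasi-likelihood test over the 13340 genes that passed the filter on low counts, and 9 of the 9 factors passed that filter, with 244 to 10815 estimated counts in a library. At an adjusted p-value under 0.05, 0 of the 9 were called, against 0% of all tested genes, and at an unadjusted p-value under 0.05 again 0 of the 9, against 3.57% of all tested genes. DESeq2 likewise gave 0 of the 9 at either threshold. Fold changes were positive for 6 factors and negative for 3, and their median log2 fold change was 0.04, beside 0.00 over all tested genes. The edgeR adjusted p was 0.99995 for each of the 9.

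The intervals say how large a difference could have been missed. For all 9 factors the 95% interval of the edgeR log2 fold change included 0, and for 8 of them it lay within a 1.5-fold change in either direction. The exception was Sp8, whose interval reached 1.64-fold higher in cKO. On the lower side the farthest bound was that of Dmrt3, at 0.742 of the WT level.

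**Figure D2:**
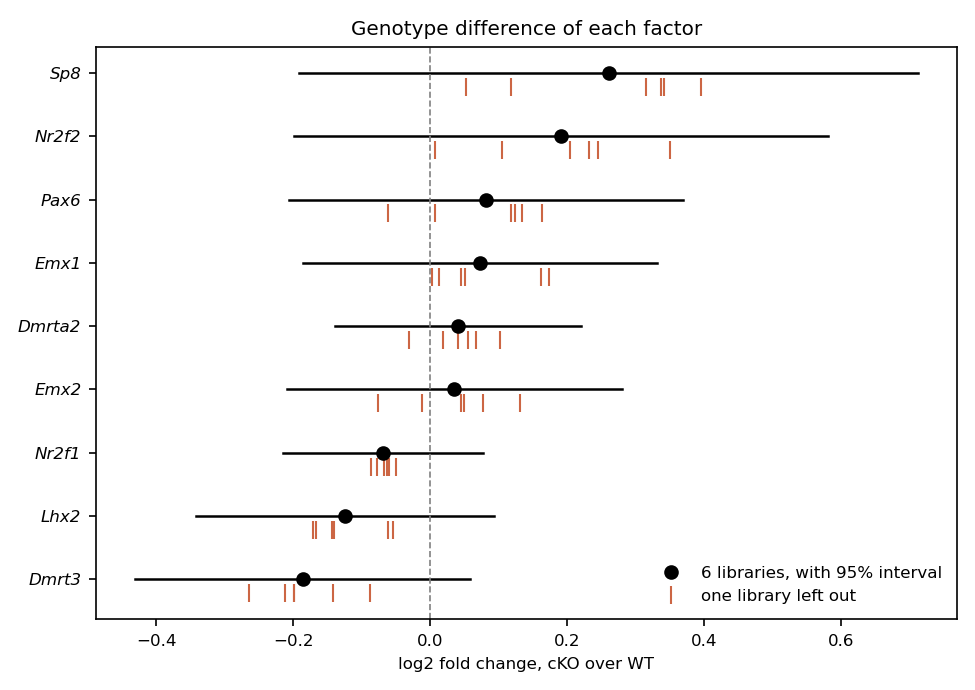
Log2 fold change of each factor, cKO over WT, from edgeR with its 95% interval (black) and the 6 values obtained when each library was left out in turn (orange ticks). All 9 intervals include 0, and the ticks of Pax6, Emx2 and Dmrta2 fall on both sides of 0.

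Pax6, the paired-box factor of radial glia, was at 160, 190 and 189 CPM in WT replicates 1, 2 and 3 and at 170, 226 and 175 in cKO replicates 1, 2 and 3. The cKO libraries overlapped the WT range, and cKO replicate 2 alone lay above it. The difference was 0.08 on the log2 scale (standard error 0.12, 95% interval -0.21 to 0.37). Without cKO replicate 2 it became -0.061.

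Emx2 gave 76.1, 83.2 and 86.7 CPM in WT and 73.4, 96.5 and 82.2 in cKO, again with cKO replicate 2 highest and cKO replicate 1 lowest. Its log2 fold change was 0.04 (standard error 0.11). The sign depended on single libraries, at -0.011 without WT replicate 1 and -0.076 without cKO replicate 2. The related homeobox gene Emx1 had 98.9, 84.7 and 78.8 CPM in WT and 96.5, 99.4 and 80.2 in cKO, with overlapping genotypes and a log2 fold change of 0.07 (standard error 0.11). With 1 library left out, the Emx1 value lay between 0.0032 (without WT replicate 3) and 0.17 (without WT replicate 1).

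Lhx2, the LIM-homeobox selector, was at 679, 583 and 607 CPM in WT and at 591, 604 and 520 in cKO. The top value was in WT replicate 1 and the bottom one in cKO replicate 3, and the rest were interleaved. The log2 fold change was -0.12 (standard error 0.09, interval -0.34 to 0.09). It was -0.06 without cKO replicate 3, the library with keratin and collagen transcripts, and -0.11 when WT replicate 2 was left out as well. Without WT replicate 2 alone it was -0.17 and the genotypes did not overlap, as was so for 18.5% of all tested genes then.

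Nr2f1, a nuclear receptor that sets the caudal limit of frontal cortex, was the single factor whose genotypes did not overlap on the CPM scale. It was at 305, 291 and 300 CPM in WT and 285, 288 and 282 in cKO. All 3 cKO libraries were below all 3 WT libraries, which was the case in either direction for 9.04% of all tested genes, with cKO lower for 4.83% and higher for 4.21%. The size of the difference was small, -0.07 on the log2 scale (standard error 0.06, interval -0.22 to 0.08), and unadjusted p = 0.307 in the edgeR quasi-likelihood test. That test draws each gene's variance towards that of other genes, so its standard error does not reflect the spread of the Nr2f1 libraries alone. On the TPM scale the groups overlapped, since cKO replicate 1 (341 TPM) exceeded WT replicate 2 (334 TPM). Nr2f1 also varied least of the 9: its coefficient of variation within genotypes was 1.80%, close to the 1.46% that counting alone would give at its depth, and lower than in all but 0.727% of tested genes, whose median was 9.92%.

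Nr2f2, the paralog of Nr2f1, was at 48.8, 50.0 and 40.9 CPM in WT and 53.0, 40.6 and 65.8 in cKO. In this case cKO held both the highest library (replicate 3) and the lowest (replicate 2). The log2 fold change was 0.19 (standard error 0.17), and it was 0.01 without cKO replicate 3 and 0.06 when WT replicate 2 was dropped too. Without cKO replicate 2 it was 0.35, with an unadjusted p of 0.0336 in edgeR and an adjusted p of 0.999, and the genotypes no longer overlapped, as was so for 17.5% of all tested genes in that setting. In cKO replicate 3 the 12 meningeal and mesenchymal markers summed to 672 CPM against 37.3 to 59.9 in the other 5 libraries, and the 8 endothelial markers to 118 CPM against 79.4 to 111. Within the first list, Foxc1 had 18 counts in cKO replicate 3 against 14 to 40, and Foxd1 had 6 against 3 to 11. Aldh1a2 had 1 against 0 to 2, whereas the rest of that list was highest in cKO replicate 3. Mesenchyme and endothelium express Nr2f2, and the part of these cells in its level was not tested.

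Sp8, a zinc-finger factor of the rostral pole, had 15.3, 21.6 and 21.5 CPM in WT and 19.0, 29.6 and 21.5 in cKO. WT replicate 1 was lowest and cKO replicate 2 highest, and the remaining 4 libraries lay between 19.0 and 21.6 CPM. Its log2 fold change, 0.26 (standard error 0.20), was the largest of the 9 in size. It ranged from 0.05 without cKO replicate 2 to 0.40 without cKO replicate 1, where the genotypes separated, as did those of 25.1% of all tested genes.

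The doublesex-related genes differed little. Dmrta2 was at 92.5, 87.0 and 89.8 CPM in WT and 85.5, 101 and 90.4 in cKO, a log2 fold change of 0.04 (standard error 0.08) that turned to -0.031 without cKO replicate 2. Dmrt3 was at 35.2, 30.7 and 27.8 CPM in WT and 26.1, 28.4 and 27.9 in cKO, so that WT replicates 1 and 2 were above all cKO libraries and WT replicate 3 was among them. Its log2 fold change of -0.19 (standard error 0.11, interval -0.43 to 0.06) had the lowest unadjusted p of the 9, 0.117 in edgeR. Without WT replicate 3 the value was -0.26, with an unadjusted p of 0.0481 and an adjusted p of 0.99985 in edgeR, and without WT replicate 1 it was -0.087 with an unadjusted p of 0.410.

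**Figure D3:**
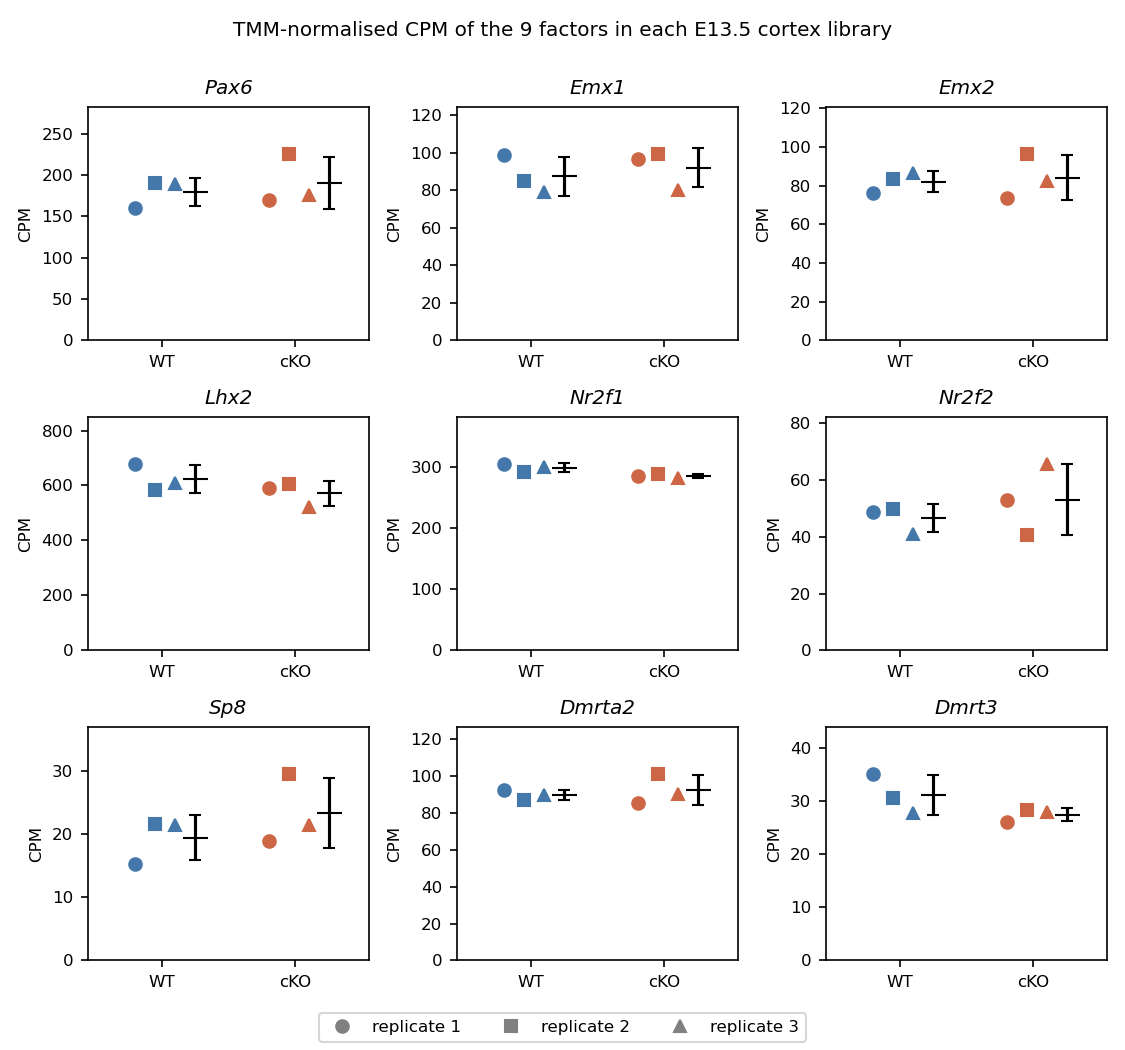
TMM-normalised CPM of each factor per library (blue WT, orange cKO, symbol shape for replicate number), with the mean and SD of 3 libraries beside each group. Genotypes overlap for every factor except Nr2f1, whose groups lie at 291 to 305 and 282 to 288 CPM.

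Since opposed gradients are read out by the balance of factors, ratios of TPM levels were compared within libraries, where library scaling cancels. Pax6 over Emx2, the rostrolateral over the caudomedial factor, was 1.40, 1.55 and 1.46 in WT and 1.56, 1.57 and 1.44 in cKO. Sp8 over Nr2f1 was 0.0220, 0.0315 and 0.0313 in WT and 0.0293, 0.0455 and 0.0330 in cKO. For both ratios the genotypes overlapped.

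The paralog ratios overlapped as well. Emx1 over Emx2 ranged from 2.34 to 3.33 in WT and from 2.52 to 3.39 in cKO. For the COUP-TF pair, Nr2f1 over Nr2f2, the ratio was 13.4, 13.0 and 16.01 in WT and 11.6, 15.2 and 9.32 in cKO, the last being the library with mesenchymal transcripts. Dmrta2 over Dmrt3 was 2.09, 2.25 and 2.58 in WT and 2.59, 2.82 and 2.57 in cKO, a mean log2 difference of 0.21. In exact two-sided permutation tests, where 3 against 3 libraries cannot go below 0.1, p was 0.3 for Pax6 over Emx2, 0.7 for Emx1 over Emx2, 0.4 for Nr2f1 over Nr2f2 and for Sp8 over Nr2f1, and 0.2 for Dmrta2 over Dmrt3. Adjusted over the 5 ratios, the exact permutation p-values were 0.5 to 0.7.

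The factors also varied from library to library in ways that did not follow genotype. Pax6 and Sp8 ranked the 6 libraries in the same order, from cKO replicate 2 through WT replicates 2 and 3, cKO replicate 3 and cKO replicate 1 to WT replicate 1. In log2 units around each gene's mean, Pax6 was at 0.30 in cKO replicate 2 and -0.20 in WT replicate 1, and Sp8 at 0.50 and -0.45. Emx2 shared both directions in milder form, at 0.22 and -0.12. Of the 9 factors, 5 had their highest CPM in cKO replicate 2 (Pax6, Emx1, Emx2, Sp8 and Dmrta2) and 3 in WT replicate 1 (Lhx2, Nr2f1 and Dmrt3). Nr2f2 went the other way from Pax6, at -0.28 in cKO replicate 2 and 0.42 in cKO replicate 3.

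**Figure D4:**
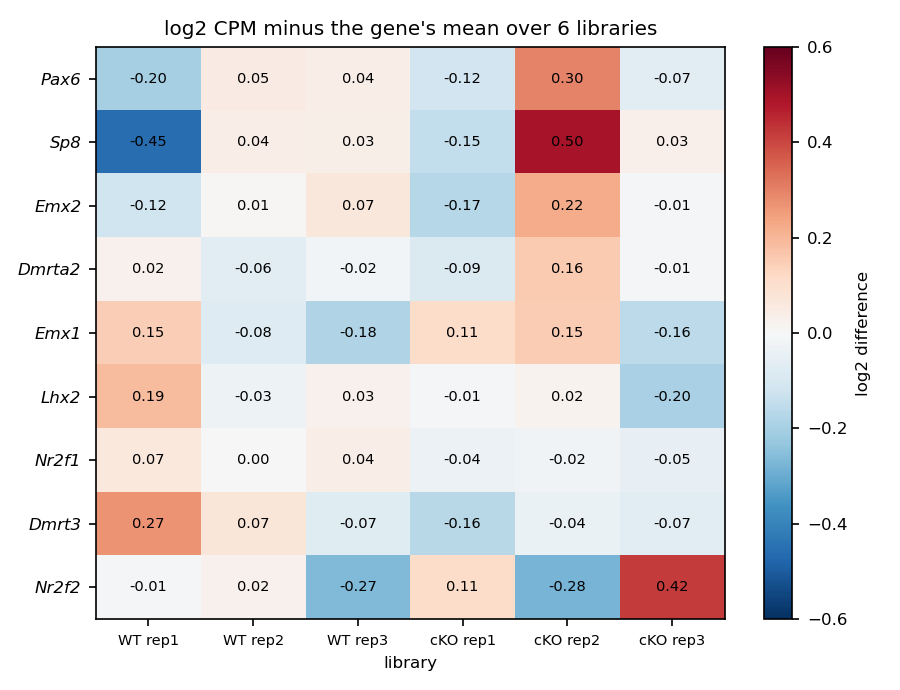
Log2 CPM of each factor minus its own mean over the 6 libraries, with red for above and blue for below. Pax6, Sp8 and Emx2 share a high cKO replicate 2 and a low WT replicate 1, Nr2f1 stays within 0.07 of its mean, and Nr2f2 reaches 0.42 in cKO replicate 3.

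Within genotypes, the coefficient of variation was 21.9% for Sp8, 19.2% for Nr2f2, 13.48% for Pax6, 11.5% for Emx1 and 10.9% for Emx2, all above the 9.92% median of tested genes. Those of Dmrt3 (9.48%), Lhx2 (7.99%) and Dmrta2 (6.61%) were below it. For Sp8, with 244 to 472 counts a library, counting error alone would give 5.39%. Outside the list, the genes whose log2 CPM over the 6 libraries was most like the averaged profile of the 9 included Hes6, Chrnb4, Mief1 and Eif4h, with Pearson r from 0.980 to 0.987. Hes6 is a basic helix-loop-helix factor that promotes neuronal differentiation, and Chrnb4 a nicotinic acetylcholine receptor subunit. These genes were the top of a search over all tested genes outside the list, so a high r is partly built in. The averaged profile also mixes factors that varied oppositely. Pairwise r among the 9 ran from -0.62 (Lhx2 and Nr2f2) to 0.96 (Pax6 and Sp8). These are descriptions without a p-value, over 6 libraries that share tissue and depth.

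The genes around these factors in the patterning network were counted from lists in the same edgeR fit. Of 119 listed genes tested, 0 passed an adjusted p-value of 0.05. At an unadjusted p-value under 0.05 there were 5 higher and 1 lower in cKO, against 1.75% higher and 1.81% lower among all tested genes.

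Of the patterning ligands (Fgf, Wnt, Bmp and related genes), 18 of 24 were tested and 0 had an unadjusted p under 0.05, with a median log2 fold change of 0.18. That median turned to -0.12 without cKO replicate 3, and was -0.01 over the 14 ligands with at least 10 counts in each library. The ligands with the lowest p were Wnt7a, at 29.7 to 34.8 CPM in WT and 33.8 to 37.0 in cKO, and Nrg1, at 61.9 to 70.6 in WT and 58.9 to 62.4 in cKO. For both the genotypes overlapped. Of the secreted antagonists, 8 of 9 were tested and 0 passed, and their median of 0.20 likewise turned to -0.05 without cKO replicate 3. Fst, which binds activins and Bmps, had 11.2 CPM in that library against 4.46 to 5.82 in the others, and the Wnt inhibitor Wif1 had 5.91 against 0.372 to 2.199.

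Among 17 tested receptors, 0 passed, with a median of -0.02 that was 0.02 without cKO replicate 3. In that setting 1 of 17 was lower at an unadjusted p under 0.05 in edgeR. Fgfr3, an Fgf receptor with high caudal expression, was at 191 to 223 CPM in WT and 165 to 188 in cKO, and its groups did not overlap (log2 fold change -0.20, unadjusted p = 0.0551 in edgeR). The Hedgehog receptor gene Ptch1 was at 16.6 to 17.6 CPM in WT and 17.8 to 22.1 in cKO, also without overlap. Among all tested genes, 4.83% had cKO lower without overlap, like Fgfr3, and 4.21% had cKO higher, like Ptch1. Of 17 signalling readouts, 1 had an unadjusted p under 0.05: Spry2, an Fgf-induced antagonist of receptor tyrosine kinase signalling, at 6.78, 7.31 and 7.38 CPM in WT and 10.4, 8.15 and 8.69 in cKO (log2 fold change 0.34, standard error 0.14, unadjusted p = 0.0362 in edgeR). Spry2 no longer had an unadjusted p under 0.05 without WT replicate 2, WT replicate 3 or cKO replicate 1. The same held without both WT replicate 2 and cKO replicate 3, in DESeq2 and in limma on log2(TPM + 1). Gli1, the Hedgehog target with the next lowest p, was at 1.07 to 2.29 CPM in WT and 1.51 to 3.14 in cKO. Readouts with positive fold changes numbered 12 of 17, and 8 of 17 without cKO replicate 3. In that setting 1 readout was higher and 2 were lower at an unadjusted p under 0.05 in edgeR.

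Of 29 tested other dorsal regulators, 20 had negative fold changes and 0 had an unadjusted p under 0.05, with a median of -0.04. Without cKO replicate 3, 12 of the 29 were negative and the median was 0.01. Without WT replicate 2, 1 was higher and 1 lower at an unadjusted p under 0.05 in edgeR, beside 195 higher and 216 lower of all tested genes. The lowest p-values were those of the zinc-finger gene Zbtb20, at 59.4 to 74.1 CPM in WT and 58.4 to 61.9 in cKO, and Nfib, at 1460 to 1632 in WT and 1189 to 1561 in cKO. Area markers gave 0 of 17, with a median of -0.03. Crym was at 3.35 to 4.06 CPM in WT and 2.13 to 3.37 in cKO, and Mef2c at 71.5 to 73.9 in WT and 59.2 to 72.9 in cKO. Of 5 tested paralogs of the 9 factors, 1 had an unadjusted p under 0.05. This was Lhx9, the LIM-homeobox gene closest to Lhx2, at 75.1, 59.9 and 54.1 CPM in WT and 52.1, 49.1 and 49.5 in cKO. The groups did not overlap, as was so with cKO lower for 4.83% of all tested genes. The log2 fold change was -0.33 (standard error 0.12, unadjusted p = 0.0255 in edgeR). Lhx9 lost this unadjusted call without WT replicate 1, cKO replicate 2 or cKO replicate 3. The call was also lost without both WT replicate 2 and cKO replicate 3, and in limma on log2(TPM + 1). Sp9, the paralog of Sp8, was at 3.22 to 8.19 CPM in WT and 8.05 to 9.35 in cKO.

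The subpallial counterpart of the network was the list with the most unadjusted calls. Of 12 tested ventral regulators and interneuron genes, 12 had positive fold changes, beside 6774 of all 13340 tested genes. Their median was 0.60 on the log2 scale. The filter can admit a gene through its cKO libraries alone. Over the 11 genes with at least 10 counts in each library, 11 were positive and the median was 0.57. An unadjusted p under 0.05 was seen for 4 (Gad1, Dlx5, Dlx1 and Gad2), against 1.75% higher among all tested genes. Gad1, a GABA-synthesising enzyme, was at 8.79, 7.37 and 10.1 CPM in WT and 14.98, 10.5 and 13.4 in cKO (log2 fold change 0.56, standard error 0.17, unadjusted p = 0.0113 in edgeR). Dlx5, a homeobox factor of the ganglionic eminences, was at 2.58, 2.79 and 5.38 CPM in WT and 5.80, 6.34 and 6.39 in cKO. Both genes had 3 cKO libraries above 3 WT libraries, as did 4.21% of all tested genes. Without WT replicate 2 and cKO replicate 3, 11 of 12 were positive with a median of 0.42 and 0 had an unadjusted p under 0.05. With 1 library left out, 1 (without WT replicate 1 or WT replicate 2) to 7 (without WT replicate 3) did. Over all tested genes, 212, 195 and 121 were higher at that threshold in these settings, in that order. Summed over 17 genes, the list was at 130, 126 and 188 CPM in WT and 193, 226 and 216 in cKO. Sp8 and Nr2f2 are also made by ventral progenitors and interneurons. The library with the highest Sp8, cKO replicate 2, also had the highest ventral sum, but WT replicate 3 matched WT replicate 2 in Sp8 with a ventral sum of 188 against 126 CPM. The part of ventral cells in the values of Sp8 and Nr2f2 was not tested.

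Markers of further tissues were summed in each library. The 8 eye markers in the table summed to 3.25 to 4.05 CPM in WT and 2.85 to 10.04 in cKO, with at most 1 count of Rax in a library but 40 counts of the pigment cell gene Pmel in cKO replicate 3 against 1 to 5 elsewhere. Markers of choroid plexus and hem summed to 6.90 to 13.1 CPM in WT and 9.24 to 24.7 in cKO, with at most 2 counts of the choroid plexus gene Ttr. The hem gene Wnt3a had 87 counts in cKO replicate 3 against 1 to 17 elsewhere, and Rspo1 142 against 31 to 66. Other genes of that list were not raised there, with Lmx1a at 18 counts against 9 to 27 and Otx2 at 30 against 8 to 63. The 10 diencephalic markers summed to 39.6 to 46.4 CPM in WT and 43.6 to 82.0 in cKO. Of these, Gbx2 had at most 1 count and Foxp2 403 to 490 in every library, whereas Irx1, Irx3 and Irx5 had 235, 159 and 193 counts in cKO replicate 3 against 0 to 18 elsewhere. In each of these 3 lists the top library was cKO replicate 3, and the part of such cells in the values of the 9 factors was not tested. Erythroid markers summed to 632 to 876 CPM in WT and 709 to 1129 in cKO, and microglial markers to 20.6 to 33.4 and 22.1 to 31.5. The 12 epidermal markers summed to 13.1 to 15.05 CPM in 5 libraries and 337 in cKO replicate 3. Within this list Krt10 was not raised, with 114 counts in cKO replicate 3 against 116 to 141, and Krt1 had 25 against 16 to 23.

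**Figure D5:**
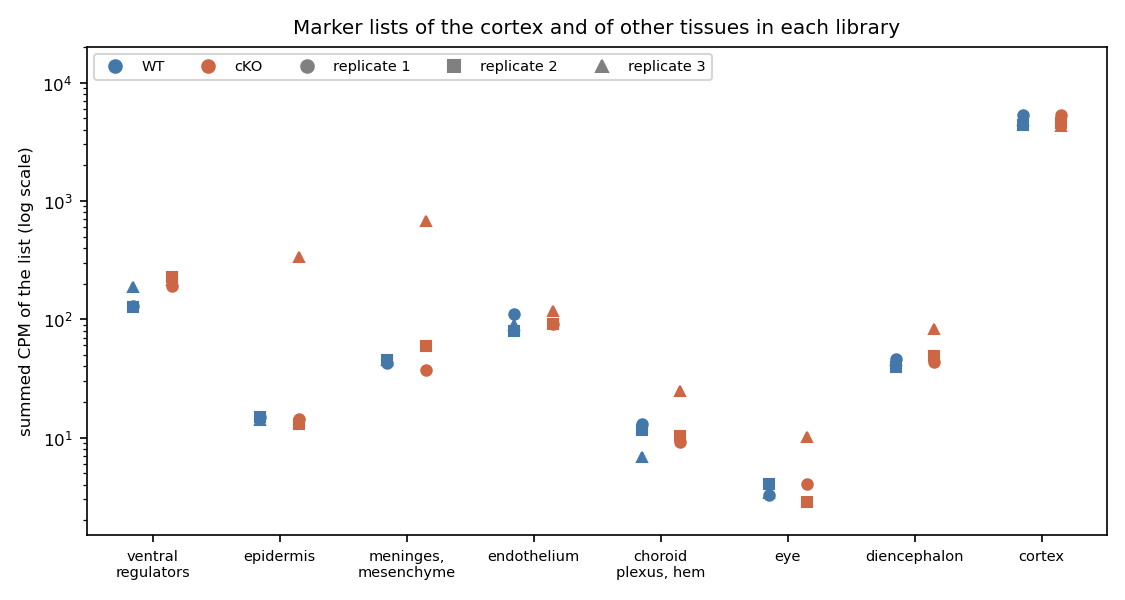
Summed CPM (log scale) of each marker list per library, WT in blue and cKO in orange, with symbol shape for replicate number. Cortical markers are at 4260 to 5363 CPM in every library, and the ventral sums of the genotypes do not overlap. The library cKO replicate 3 stands above the rest for epidermis (337 CPM) and for the joint list of meninges and mesenchyme (672 CPM). Foxc1, Foxd1 and Aldh1a2 of that joint list, and Krt10 of the epidermal list, are not raised.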

How the data were processed

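Total RNA was extracted with Trizol from E13.5 cortex and sequenced as mRNA libraries on a DNBSEQ platform. The submitters' processing notes name HISAT2 2.2.1, Bowtie2 2.4.5 and RSEM 1.3.1 with GRCm38 (mm10), but not their order, and the annotation and strand setting are not given in the sources used here. The authors deposited estimated counts per gene, of which 10.9% of values were not whole, together with TPM and FPKM values, which the authors corrected for both sequencing depth and transcript length. FPKM and 6 columns of the authors' group means were not used.

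Estimated counts were rounded, filtered with filterByExpr (minimum count 10, minimum total 15) and TMM-normalised, and CPM values refer to these normalised totals except in sums over marker lists, which refer to the plain library total. Genotype was the only term of edgeR's quasi-likelihood test (edgeR 4.0.16, R 4.3.3), with Benjamini-Hochberg adjustment over 13340 genes and a threshold of 0.05. Standard errors were obtained as the absolute log2 fold change over the root of the F statistic. The 95% interval used the test's degrees of freedom. Levels and ratios used log2(TPM) with exact permutation tests (scipy 1.17.1). The fit was tested on simulated data: among 13340 genes it recovered 93 of 200 genes changed 1.5-fold and 156 of 200 changed 2-fold, with 17 and 10 false calls. Simulated counts were drawn independently for each gene, with 200 genes changed and no library set apart. These recovery rates therefore need not hold for the 6 libraries here.

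Alternatives were RLE factors, DESeq2 1.42.0, the fit unfiltered or with a minimum of 10 counts in each library, limma-voom and limma on log2(TPM + 1) (limma 3.58.1), the replicate number as a block, each library left out, and WT replicate 2 with cKO replicate 3 left out. The named genes were the 9 factors, Ybx1, the 2 genes with the lowest p in each network list, the first 2 markers of a list over 3 times higher in 1 library, and the 5 genes most like the averaged profile, of which 1 is not reported here. Tbr1, Neurod6, Rax, Pmel, Gbx2, Foxp2, Irx1, Irx3, Irx5, Ttr, Wnt3a, Rspo1, Lmx1a, Otx2, Dlx1, Gad2, Foxc1, Foxd1, Aldh1a2, Krt10 and Krt1 were named after their values were seen. The factors and lists were chosen with earlier results of these data known. The 6 antisense genes listed have no row in the table. Counting intervals cover counting error only.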

Additional observations from a re-analysis of the deposited data

How the results depend on the processing

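Over 14 alternatives each, the 9 factors kept the sign of their log2 fold change in 122 of 126 values, and adjusted p-values stayed between 0.609 and 0.99997 in these fits. The signs that changed were Emx2 (-0.011 without WT replicate 1, -0.076 without cKO replicate 2) and Pax6 (-0.061) and Dmrta2 (-0.031) without cKO replicate 2. Leave-one-out ranges were -0.061 to 0.16 for Pax6 (0.18 without both WT replicate 2 and cKO replicate 3), -0.076 to 0.13 for Emx2 and -0.031 to 0.10 for Dmrta2. The ratio of Emx1 to Emx2 ranged from -0.083 (without cKO replicate 1) to 0.19 on the log2 scale, with -0.066 without WT replicate 3. The median of the 9 ranged from -0.061 without cKO replicate 2 to 0.10 without cKO replicate 1. The cause was not tested.

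The number of factors called stayed at 0 in all 14. Factors at an unadjusted p-value under 0.05 numbered 0 to 1 when 1 library was left out and 1 with the replicate block (Sp8, unadjusted p = 0.0444 and adjusted p = 0.609 in edgeR). Those with non-overlapping genotypes numbered 0 with log2(TPM + 1) (8.57% of all tested genes), 1 to 2 with 1 library left out (13.7% to 25.1%), and 2 without both WT replicate 2 and cKO replicate 3 (Lhx2 and Nr2f1), when 27% of all tested genes did not overlap. Listed network genes at an unadjusted p-value under 0.05 were 6, and 2 to 20 with 1 library left out (2 without WT replicate 1, 10 without WT replicate 3, 20 without cKO replicate 1). Over all tested genes, the same settings gave 212, 121 and 571 higher and 213, 118 and 482 lower, in that order. Neighbours with separate TPM ranges numbered 6 with any 1 library left out, and 6 neighbouring pairs passed the test with log2(TPM + 1).

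Over all tested genes, the unadjusted threshold was passed by 234 with cKO higher and 242 with cKO lower, the adjusted one by 0. Higher genes were 390 with no filter, 148 with DESeq2 and 105 without both libraries, where lower genes were 141. Leaving out 1 library gave 121 (without WT replicate 3) to 571 (without cKO replicate 1) higher, with 138 without cKO replicate 3, and 118 to 482 lower in the first 2 of these sets. Adjusted calls were 4 with DESeq2, 2 without both libraries and 0 to 2 with 1 library left out (2 without WT replicate 2).

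Correlations of deviations between libraries of the same number were 0.49, 0.33 and 0.00 for replicates 1, 2 and 3. Values for libraries of different number are not given here, so these do not settle whether the numbers pair the libraries. The main fit did not pair them. With the replicate block, Ybx1 had adjusted p = 0.0381 in edgeR, 476 genes were higher and 614 lower unadjusted, and 2 passed adjustment. In that fit 22 of 119 listed network genes and 1 of 9 factors had an unadjusted p-value under 0.05, so these counts are to be read beside the larger number called over all tested genes. The listed genes included 9 of 12 ventral genes, all higher, and 5 of 29 other dorsal regulators, all lower. A 1.5-fold change of a single gene would often be missed at this depth and spread.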
